A study of Mus musculus with 8 samples.

Results

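Ferroportin (Slc40a1), which exports iron from cells, and 9 other genes of iron handling were examined in osteoblasts, bone-forming cells, cultured from the calvaria of C57Bl/6 mice. Arrays labelled Lrp5 knockout (Lrp5-/-, n = 4) were compared with control arrays (Lrp5+/+, n = 4). Lrp5 is a receptor that binds Wnt ligands together with Frizzled proteins, and the series concerns its role in how osteoblasts handle fatty acids. Cells of either kind were infected with adenovirus for Cre recombinase or for a fluorescent control protein (GFP), were put into differentiation 48 hours later in ascorbic acid (50 ug/ml) with beta-glycerol phosphate (10 mM), and were taken on day 7. Which virus went to which group, how many cells it reached and whether replicate arrays stem from separate animals is not in the labels, so a p-value covers array-to-array spread that may be technical.

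The 10 genes were taken by symbol and carried 13 of the 25697 probes of the array, 2 each for Tfrc, Hfe and Fth1. Slc40a1 was picked because it stood among the largest rises in this same comparison, so its difference is given as a description with no test. The other 9 (Cp, Slc11a2, Tfrc, Hfe, Fth1, Ftl1, Hmox1, Aco1 and Ireb2) were listed for their known roles, with earlier results of these data known. Of the 10, 9 genes (12 probes) passed the filter on dim probes, that is, a detection p below 0.01 in 4 or more of the 8 arrays. Ftl1 did not. In all, 7041 of the 16593 genes with a named probe passed. Levels are log2 of the background-corrected, quantile-normalized signal, differences are knockout-labelled minus control, and a level is never compared between probes.

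Iron enters most cells bound to transferrin through the transferrin receptor (Tfrc), whose binding to transferrin is modulated by Hfe, and leaves the endosome through the divalent metal transporter Slc11a2. Ferritin, built of heavy (Fth1) and light (Ftl1) chains, stores it, heme oxygenase 1 (Hmox1) frees it from heme, and ferroportin exports it with the help of a ferroxidase such as ceruloplasmin (Cp). The iron regulatory proteins Aco1 and Ireb2 bind hairpins in the messenger RNAs of ferritin, ferroportin and the transferrin receptor, and much of this control acts on translation, which an array of RNA levels does not read.

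The arrays detected 9685 to 10363 probes each. The single Lrp5 probe lay near background, at 5.63, 5.66, 6.07 and 6.10 log2 on the knockout-labelled arrays and 5.43, 5.70, 5.48 and 5.53 on the control arrays. It was detected on 2 knockout-labelled and 1 control arrays and was not lower in the knockout-labelled group, and whether it lies inside the deletion is unknown here, so directions rest on the labels alone. Among osteoblast markers Sp7, Alpl, Col1a1, Col1a2 and Pth1r were detected on all 8 arrays, while Bglap, Bglap2, Phex and Dmp1 were detected on none. Ibsp was detected on 4 knockout-labelled and 1 control arrays, and Runx2 and Spp1 had no named probe. Erythroid markers, which would bring their own iron genes, were detected on no array (0 of the 7 with a probe).

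Slc40a1 was higher on every knockout-labelled array than on any control array. Its level was 9.09, 9.02, 9.04 and 9.26 log2 on the knockout-labelled arrays, against 8.32, 8.20, 8.64 and 8.45 on the control arrays. The means were 9.10 ± 0.11 and 8.40 ± 0.19 (SD, n = 4 each), a difference of 0.70 (SE 0.10), or 1.63-fold. The groups were apart before any normalization as well: the deposited intensity was 564, 611, 577 and 801 on the knockout-labelled arrays and 420, 454, 494 and 487 on the control arrays. Among all 7041 genes tested, 16.8% had groups that did not overlap, 7.54% with the knockout-labelled group higher. In a culture measured in bulk, fewer cells of a type and less RNA per cell cannot be told apart.

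**Figure D1:**
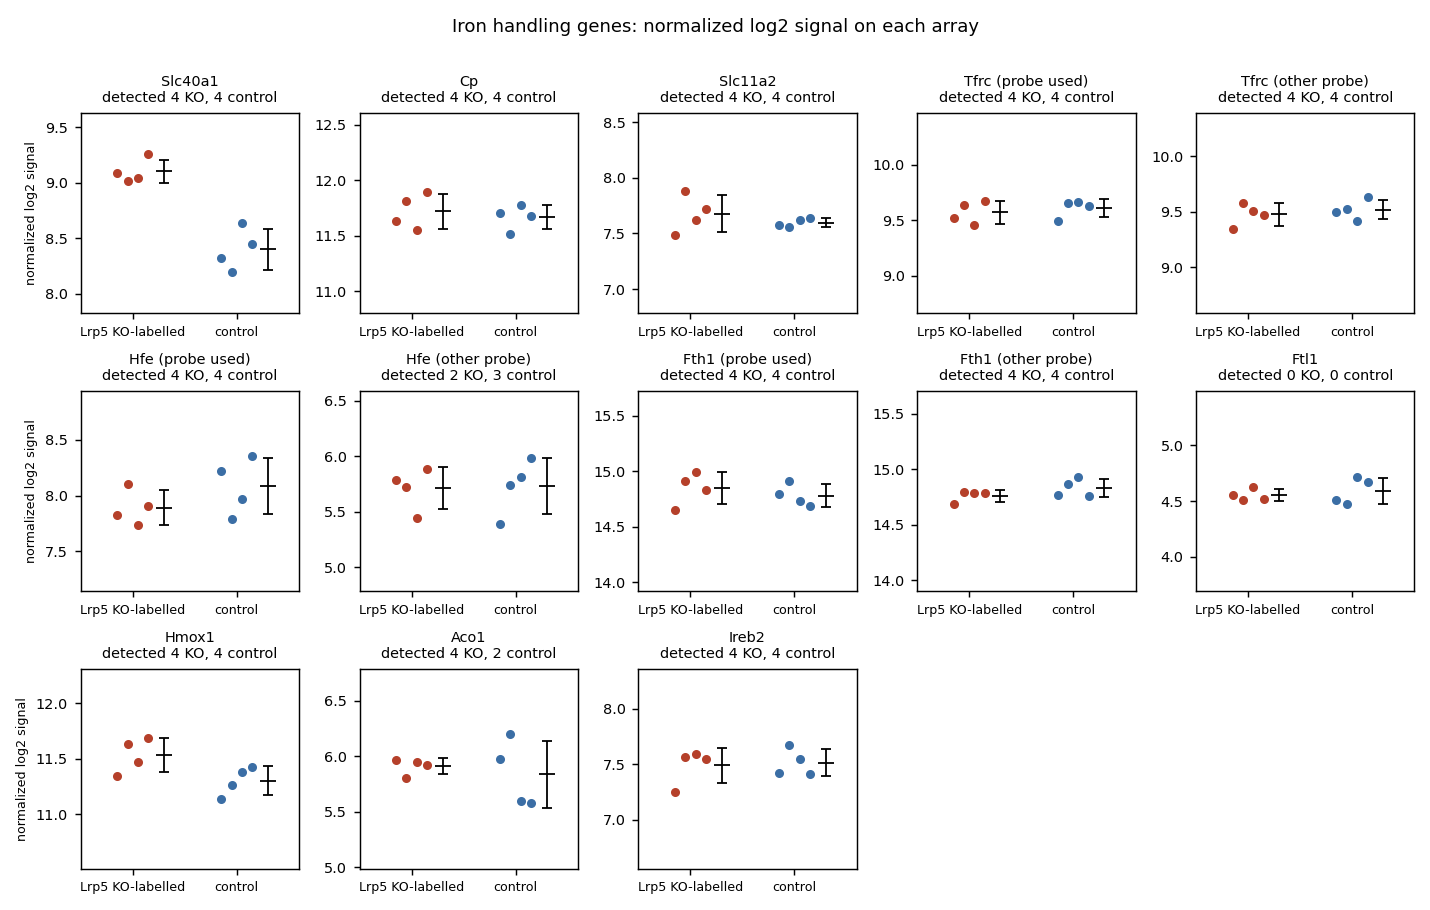
Normalized log2 signal (y axis, each panel spanning the same range of log2 units) of all 13 probes of the 10 iron handling genes on the knockout-labelled arrays (left) and control arrays (right), with each group's mean and SD in black and the number of arrays that detected the probe above. The groups are apart for Slc40a1, at 9.02 to 9.26 against 8.20 to 8.64, and overlap for each of the other 12 probes.

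Of the 9 genes tested, 1 (Slc40a1) passed an adjusted p of 0.05 in the limma fit across all genes, where 8.62% of genes passed. Since Slc40a1 was chosen from this fit, nothing is read from that count. Over all genes 249 were higher and 358 lower in the knockout-labelled group, and with arrays scaled by their 75th percentile 338 were higher and 315 lower. The 8 other members tested had differences of -0.19 to 0.23 log2, with a median of 0.06, against a median of 0.00 over all genes. By limma 0 of the 8 passed, and 1 (Hmox1) had an unadjusted p under 0.05, against 25.8% of all genes.

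**Figure D2:**
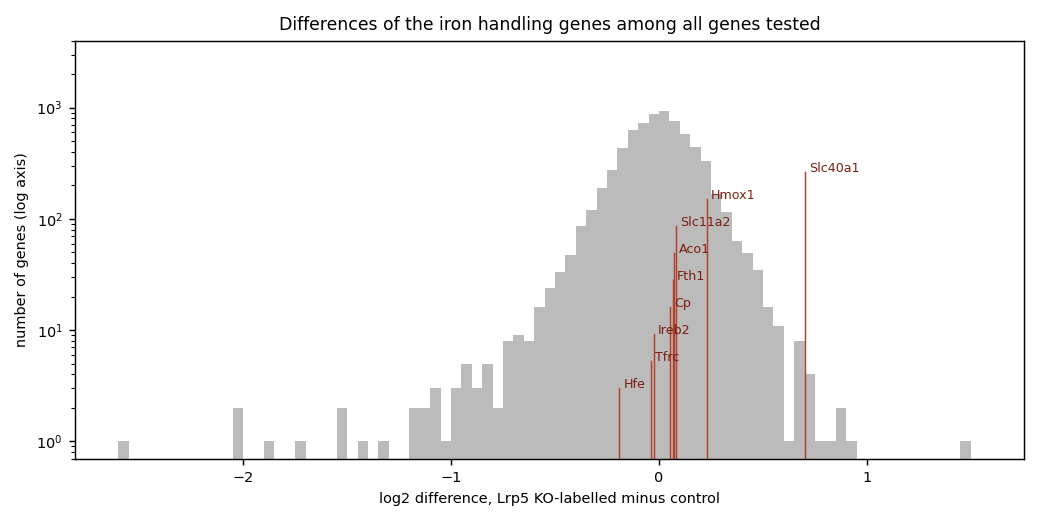
Histogram of the log2 difference (x axis, knockout-labelled minus control) over the 7041 genes tested, with the number of genes on a log axis and red lines marking the 9 iron handling genes tested (the height of a line carries no value). Slc40a1 stands at 0.70, and the other 8 lie between -0.19 and 0.23.

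The ferroxidase Cp showed no difference past the threshold. Cp stood at 11.64, 11.81, 11.55 and 11.89 log2 on the knockout-labelled arrays and 11.70, 11.52, 11.78 and 11.68 on the control arrays. The difference was 0.05, with a 95% interval of -0.14 to 0.25 (limma adjusted p = 0.759). Its groups overlapped over most of their range.

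The uptake genes overlapped between the groups. Tfrc, the transferrin receptor, stood at 9.52, 9.63, 9.45 and 9.67 log2 on the knockout-labelled arrays and 9.49, 9.65, 9.66 and 9.63 on the control arrays. Its difference was -0.04 (95% interval -0.19 to 0.12; limma adjusted p = 0.775), and its other probe gave -0.04 as well. The endosomal iron transporter Slc11a2 lay between 7.49 and 7.88 on the knockout-labelled arrays and between 7.56 and 7.64 on the control arrays, a difference of 0.08 (95% interval -0.10 to 0.26; limma adjusted p = 0.576). The knockout-labelled arrays thus spread more widely for Slc11a2 (SD 0.16) than the control arrays (SD 0.04). Hfe, the hemochromatosis protein, lay between 7.73 and 8.10 on the knockout-labelled arrays and between 7.79 and 8.35 on the control arrays. Its difference of -0.19 was the lowest of the set and did not pass (95% interval -0.47 to 0.08; limma adjusted p = 0.358). Its other probe, detected on 2 knockout-labelled and 3 control arrays, gave -0.02.

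Ferritin heavy chain was measured by 2 very bright probes that leaned in opposite directions. The brighter Fth1 probe stood at 14.65, 14.91, 14.99 and 14.83 log2 on the knockout-labelled arrays and 14.79, 14.91, 14.73 and 14.69 on the control arrays, a difference of 0.07 (95% interval -0.12 to 0.25; limma adjusted p = 0.664). The other Fth1 probe stood at 14.68, 14.79, 14.78 and 14.78 on the knockout-labelled arrays and 14.77, 14.87, 14.93 and 14.76 on the control arrays, a difference of -0.07. The groups overlapped for both probes, and neither probe passed (limma adjusted p = 0.53 for the other probe when each probe was tested on its own). Both probes ranked between 5 and 33 in brightness among the 25697 on every array, where quantile normalization sets the values from few probes, and the mouse genome holds processed ferritin pseudogenes whose RNA such probes could also bind. The light chain Ftl1 was detected on no array, at 4.51 to 4.63 log2 on the knockout-labelled arrays and 4.47 to 4.71 on the control arrays, so that no change could be measured for it.

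Hmox1, which opens the heme ring and releases its iron, had the largest difference after Slc40a1 but did not pass. It stood at 11.34, 11.63, 11.47 and 11.68 log2 on the knockout-labelled arrays, against 11.14, 11.27, 11.38 and 11.43 on the control arrays. The knockout-labelled arrays 2, 3 and 4 lay above every control array, and array 1 lay below control arrays 3 and 4. The difference was 0.23 (SE 0.09, 95% interval 0.03 to 0.44; limma adjusted p = 0.148). It passed under 3 of 20 alternative settings, with no background correction, in the authors' log2 table and with a trended and robust prior (limma adjusted p of 0.0411 at the lowest and 0.297 at the highest over all 20).

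The iron regulatory proteins did not differ past the threshold either. Ireb2 stood at 7.25, 7.57, 7.59 and 7.55 log2 on the knockout-labelled arrays and 7.42, 7.67, 7.55 and 7.42 on the control arrays, a difference of -0.02 (95% interval -0.23 to 0.18; limma adjusted p = 0.9). Aco1, which is an aconitase while it carries its iron-sulfur cluster and an RNA-binding protein without it, stood at 5.96, 5.80, 5.95 and 5.92 on the knockout-labelled arrays and 5.97, 6.20, 5.60 and 5.58 on the control arrays. Aco1 was detected on 4 knockout-labelled and 2 control arrays, so its difference of 0.07 is not exact (95% interval -0.21 to 0.36; limma adjusted p = 0.769).

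Across arrays, the members did not follow Slc40a1 closely. Over the 8 arrays Pearson's r with Slc40a1 was 0.77 for Hmox1 and 0.44 for Cp, and between -0.39 for Hfe and 0.37 for Slc11a2 for the others. With each group's mean removed it was 0.50 for Hmox1 and 0.68 for Cp, and -0.72 for Aco1. These are descriptions over 8 arrays that share their normalization. Slc40a1 was chosen for its group difference, so r over the arrays as they are also reflects that difference. The genes named next are the highest among the 7041 tested by each measure, and their link to Slc40a1 was not tested. The genes most like Slc40a1 over the 8 arrays as they are were the lysophosphatidic acid receptor Lpar4 (r = 0.98), the netrin receptor Unc5b (0.98), the nuclear exporter Xpo6 (0.97), the ceramidase Asah2 (0.96) and Abraxas2 (0.96), and 83 genes exceeded 0.9. With group means removed the 5 most alike were Cc2d2a (0.99), Man2b2 (0.98), Nrbf2, Ttc13 and BC004004 (0.96 each), so that the 5 most alike by either measure were different genes.

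The wider iron pathway was read from 124 further genes in 8 lists by role, of which 105 had a named probe and 76 passed the detection filter. Of these 76, 2 rose and 3 fell in the limma fit, which is 6.58%, against 8.62% of all genes. The background shares in each direction were 3.54% higher and 5.08% lower. The median difference of the 76 was -0.04 log2, with 33 above and 43 below 0. The genes that passed were Mt2 and Egln1, which rose, and Scara5, Glrx5 and Maff, which fell.

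**Figure D3:**
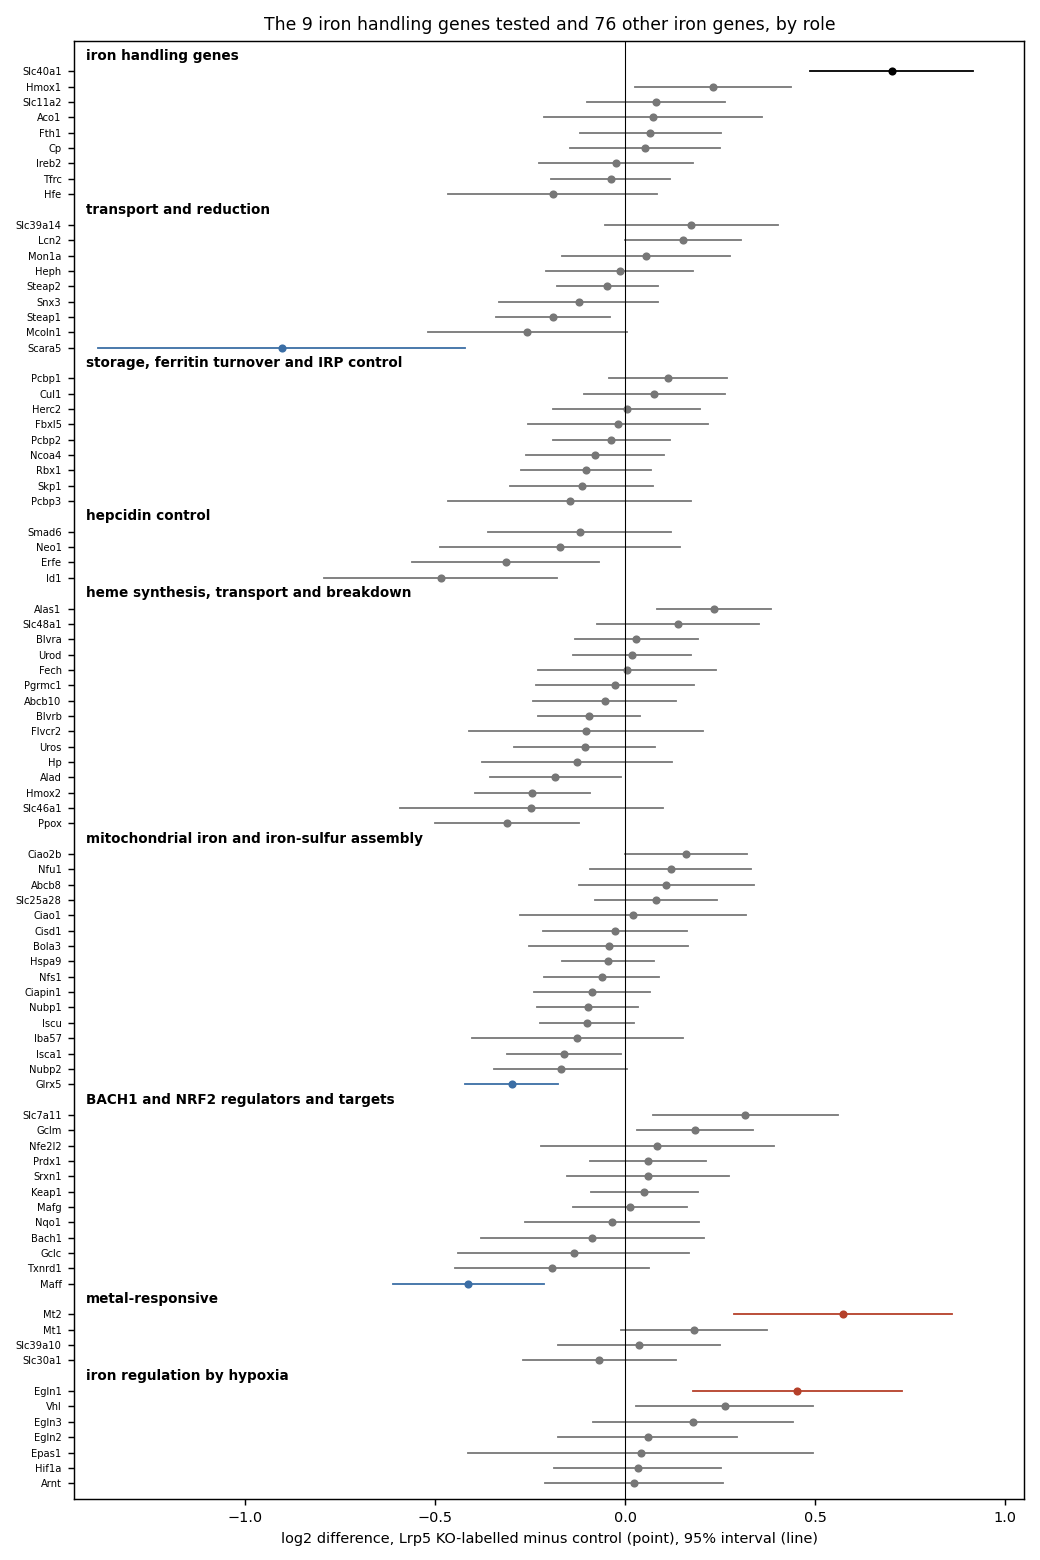
Log2 difference (x axis, knockout-labelled minus control, with its 95% interval) of the 9 iron handling genes and 76 other iron genes tested, grouped by role. Red marks genes that rose and blue genes that fell past the limma threshold, grey marks the rest, and black marks Slc40a1, which was chosen from this comparison. Slc40a1 at 0.70 and Scara5 at -0.90 lie farthest out.

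Among transport and reduction genes, 1 of 9 tested fell, against 5.08% of all genes, and 0 rose. Scara5, a scavenger receptor that takes up L-ferritin in mouse, stood at 6.62, 6.05, 6.46 and 6.88 log2 on the knockout-labelled arrays, against 7.66, 7.57, 7.62 and 6.76 on the control arrays. Control array 4 lay apart from the other control arrays and below knockout-labelled array 4. Scara5 fell by 0.90 log2 (SE 0.22; limma adjusted p = 0.0319), or 1.87-fold. The fall was 1.12 without control array 4, 0.63 with normexp, 0.48 with no background correction and 0.47 in the authors' table. Its call was lost without any of 6 other arrays, with the replicate number as a block and with no detection filter (limma adjusted p up to 0.0861). The zinc and iron importer Slc39a14 differed by 0.17 without passing (limma adjusted p = 0.315), while transferrin itself (Trf) and the endosomal ferrireductase Steap3 were detected on no array.

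Storage and turnover genes did not move past the threshold, with 0 of 9 called by limma, 0 at an unadjusted p under 0.05, and differences of -0.15 to 0.11. Ncoa4, the receptor that delivers ferritin to autophagy, differed by -0.08 (limma adjusted p = 0.573). Fbxl5, the ubiquitin ligase subunit that senses iron and marks Ireb2 for degradation, differed by -0.02 (limma adjusted p = 0.932). Pcbp1, a chaperone that loads iron into ferritin, differed by 0.11 (limma adjusted p = 0.344). Of 11 genes of hepcidin control only Id1, Erfe, Neo1 and Smad6 passed the detection filter, and they are named for that alone. By limma 0 of the 4 passed, 2 (Id1 and Erfe) had an unadjusted p under 0.05, against 25.8% of all genes, and all 4 lay below 0. Id1 differed by -0.49 and Erfe by -0.31 (limma adjusted p = 0.0556 and 0.108), values given after they were seen, and the groups overlapped for both. Id1 passed under some of the 20 alternatives, such as the authors' table and the replicate block, and not under others. Erfe passed only without knockout-labelled array 2. Hepcidin itself (Hamp), the peptide hormone that removes ferroportin from the membrane, was detected on no array.

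Among mitochondrial iron and iron-sulfur genes, 1 of 16 tested (Glrx5) fell and 0 rose, or 6.25%, against 8.62% of all genes. The call of Glrx5 was the steadiest in the wider lists. Glrx5, a mitochondrial glutaredoxin that passes on iron-sulfur clusters and is needed for heme synthesis in zebrafish, stood at 11.06, 11.08, 11.18 and 11.09 log2 on the knockout-labelled arrays, against 11.43, 11.40, 11.40 and 11.38 on the control arrays. Every knockout-labelled array lay below every control array, as was so for 9.25% of all genes. Glrx5 fell by 0.30 log2 (SE 0.05; limma adjusted p = 0.0102), or 1.23-fold, and passed under all 20 alternatives (limma adjusted p of 0.00041 to 0.0415). The other 15 genes of that list did not pass, and 11 of the 16 lay below 0. Mitoferrin 1 (Slc25a37) had no named probe.

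Of 15 heme genes 0 passed in limma, and 4 had an unadjusted p under 0.05, a share near the 25.8% of all genes. Alas1, the rate-limiting enzyme of heme synthesis outside the red cell lineage, stood at 11.92, 11.93, 11.81 and 11.72 log2 on the knockout-labelled arrays and 11.66, 11.60, 11.53 and 11.66 on the control arrays, without overlap. Its difference was 0.23 (SE 0.07; limma adjusted p = 0.0586), and it passed under 8 of 20 alternatives. Ppox, the protoporphyrinogen oxidase, and Hmox2, the constitutive heme oxygenase, are named although the naming rule did not pick them. They differed by -0.31 and -0.25 (limma adjusted p = 0.0501 and 0.0518), with no overlap between the groups. Fech, which inserts iron into the ring, differed by 0.00 (limma adjusted p = 0.988), and its other detected probe by 0.15.

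The metal-responsive genes included the largest rise of the wider lists. Metallothionein 2 (Mt2), which binds zinc and copper, stood at 8.91, 8.86, 9.16 and 8.93 log2 on the knockout-labelled arrays, against 8.45, 8.20, 8.15 and 8.77 on the control arrays, without overlap. Mt2 rose by 0.57 log2 (SE 0.13; limma adjusted p = 0.0249), or 1.49-fold. The call did not hold without knockout-labelled array 3 or control array 1, 2 or 3 and with no detection filter (limma adjusted p up to 0.0698). Metallothionein 1 (Mt1) stood at 13.95, 14.18, 14.23 and 14.27 on the knockout-labelled arrays and 13.99, 13.85, 13.93 and 14.13 on the control arrays. It differed by 0.18 (95% interval -0.01 to 0.37; limma adjusted p = 0.222). Mtf1, the zinc-sensing factor that activates metallothionein genes through metal response elements and is reported to act on mouse ferroportin, was detected on 0 knockout-labelled and 1 control arrays.

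**Figure D4:**
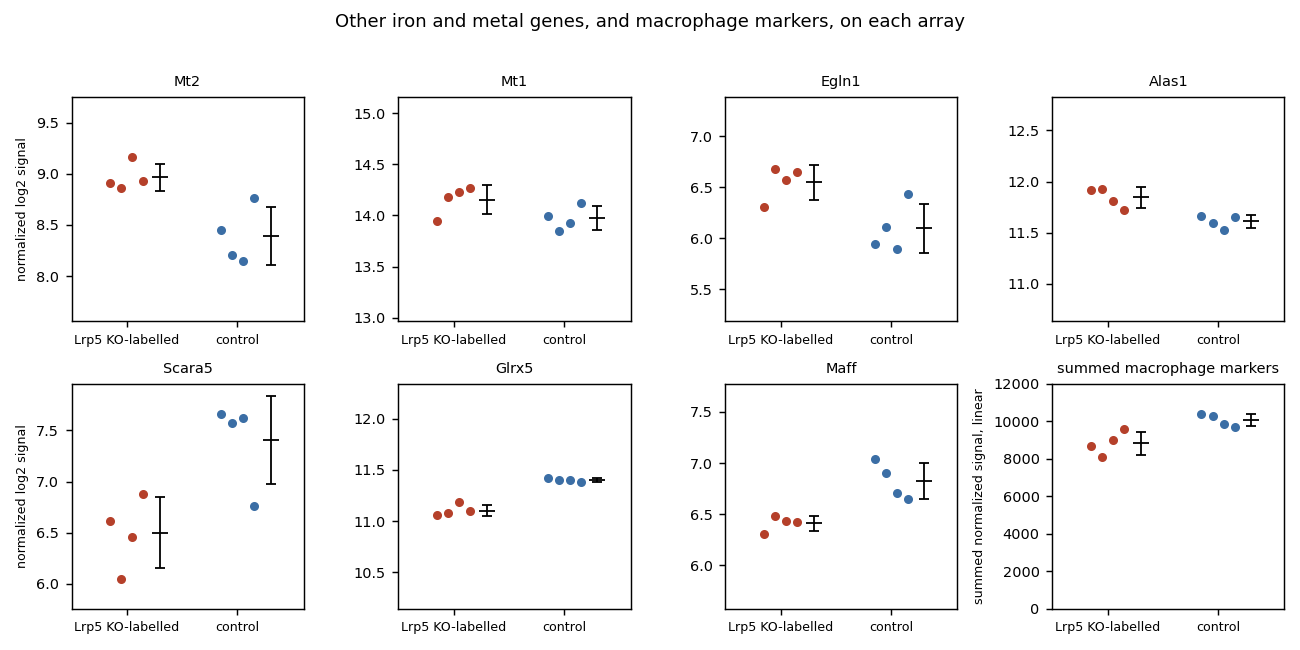
Normalized log2 signal (y axis, each panel spanning the same range of log2 units) of 7 iron and metal genes, and the summed linear signal of 8 macrophage markers (axis from 0), on the knockout-labelled arrays (left) and control arrays (right), with each group's mean and SD in black. Mt2, Alas1, Glrx5 and Maff show no overlap between the groups, and control array 4 of Scara5 lies among the knockout-labelled arrays. The marker sum, mostly signal of Lyz1 and Lyz2, is lower on every knockout-labelled array.

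The sequences before the annotated start of Mt2 and Mt1 are shown because the neighbouring metallothionein genes share this motif and Mt2 passed while Mt1 did not (the difference between them was not tested), with a stretch of the Tfrc promoter as the one match among the members. They are from RefSeq (GRCm38.p6) and read 5′ to 3′, and capitals mark the core of the metal response element, searched as TGCACNC or TGCGCNC on both strands.
Mt2, chr8:94172368-94172617, plus strand: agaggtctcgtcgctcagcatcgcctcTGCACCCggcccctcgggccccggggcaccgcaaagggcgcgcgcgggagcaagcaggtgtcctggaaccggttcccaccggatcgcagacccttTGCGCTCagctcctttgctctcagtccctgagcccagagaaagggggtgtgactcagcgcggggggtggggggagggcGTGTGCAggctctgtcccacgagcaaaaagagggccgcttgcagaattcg
Mt1, chr8:94178839-94179088, plus strand: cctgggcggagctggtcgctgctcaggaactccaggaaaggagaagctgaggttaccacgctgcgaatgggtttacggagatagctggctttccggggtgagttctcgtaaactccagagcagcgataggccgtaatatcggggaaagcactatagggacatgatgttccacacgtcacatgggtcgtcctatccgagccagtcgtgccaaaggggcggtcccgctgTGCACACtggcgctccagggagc
Tfrc, chr16:32608816-32608875, plus strand: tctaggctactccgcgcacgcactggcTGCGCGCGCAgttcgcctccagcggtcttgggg

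The 250 bases before the annotated start held 3 matches in Mt2 and 1 in Mt1, and the 2 matches in Tfrc overlap each other, in 1 of its 2 annotated windows. Of 32851 promoters of that length 21.4% held at least 1 match and 5.17% at least 2. The counts depend on where the annotated start lies, and bases after it were not searched for this motif. The lower count in the Mt1 window thus does not say that Mt1 has fewer such elements. Promoter windows were found for 7 of the 10 members (Cp, Tfrc, Hfe, Fth1, Ftl1, Aco1 and Ireb2). Among these 7, the antioxidant response element, searched as TGACNNNGC on both strands and present in 10.2% of promoters, occurred in Hfe, and Mt2 held 1 match as well. The loop of the iron-responsive element, searched as CAGTGN on the sense strand of the 50 bases after the start, occurred in none of the 7 and in 7.08% of all promoters. The rest of each messenger RNA was not searched, so this does not say that ferritin or the transferrin receptor lacks the hairpin. A match is a description of letters in a window and no match says only that they are not in it.

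Of 12 genes of the BACH1 and NRF2 list, which includes regulators of Hmox1, ferritin and ferroportin, 1 fell and 0 rose. That is 8.33% called, against 8.62% of all genes. Maff, a small Maf protein that pairs with BACH1 or NRF2, stood at 6.31, 6.48, 6.44 and 6.42 log2 on the knockout-labelled arrays, against 7.04, 6.90, 6.71 and 6.65 on the control arrays, without overlap. Maff fell by 0.41 log2 (SE 0.09; limma adjusted p = 0.0204), or 1.33-fold. The fall was 0.27 with normexp, 0.20 with no background correction and 0.19 in the authors' table. Maff lost its call without knockout-labelled array 1 or control array 2 and with the replicate number as a block (limma adjusted p up to 0.0605). Bach1, the heme-sensing repressor, differed by -0.09 and Nfe2l2, which encodes NRF2, by 0.08 (limma adjusted p = 0.725 and 0.749). The NRF2 target Nqo1 differed by -0.04 (limma adjusted p = 0.869). Of the 12, 3 had an unadjusted p under 0.05, a share near the 25.8% of all genes. They were Maff and, named after their values were seen, the cystine transporter Slc7a11 at 0.32 and the glutathione synthesis gene Gclm at 0.18 (limma adjusted p = 0.101 and 0.124). Slc7a11 passed under 4 of the 20 alternatives.

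Of 7 genes of the hypoxia list, 1 rose, against 3.54% of all genes. All 7 lay above 0, as did 3522 of the 7041 genes tested, with a median of 0.06 and a lowest value of 0.02. Egln1, a prolyl hydroxylase that uses iron to mark hypoxia-inducible factors for degradation, stood at 6.30, 6.68, 6.57 and 6.65 log2 on the knockout-labelled arrays, against 5.95, 6.11, 5.90 and 6.43 on the control arrays. Egln1 rose by 0.45 log2 (SE 0.12; limma adjusted p = 0.0488), against 0.27 with normexp, 0.19 with no background correction and 0.18 in the authors' table. Its other probe differed by 0.14, and the call was lost without any of 6 arrays and under 4 other settings (limma adjusted p up to 0.119). Epas1, the hypoxia factor that activates ferroportin in mouse intestine, is named after its values were seen, because its probes disagreed. The probe used differed by 0.04, while the other stood at 5.95, 6.08, 6.00 and 6.09 on the knockout-labelled arrays and 5.66, 5.72, 5.84 and 5.84 on the control arrays. That probe rose by 0.27 when each probe was tested on its own (limma adjusted p = 0.0437), and was detected on 3 of the 4 control arrays.

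Macrophages carry much ferroportin and Hmox1, so markers of these cells were read as well. Of 20 markers listed 18 had a probe and 8 passed the filter, and all 8 were lower in the knockout-labelled group. Over all 7041 genes tested, 3519 were lower and 3522 higher. The lymphoid and myeloid membrane protein Laptm5 fell by 0.47 log2 (limma adjusted p = 0.0042), and the other 7 differed by -0.27 to -0.10 without passing. An unadjusted p under 0.05 was reached by 6 of the 8, against 25.8% of all genes. The summed linear signal of the 8 was 8111 to 9571 on the knockout-labelled arrays and 9693 to 10405 on the control arrays. Most of that sum is signal of Lyz1 and Lyz2. Adgre1, a standard surface marker of mouse macrophages, Lyz1, Lyz2, Cd14, Aif1, Marco and Laptm5 were detected on all 8 arrays. Tyrobp was detected on 1 knockout-labelled and 3 control arrays, so it passed the filter through the group where it is higher. Tyrobp is counted both in the 8 that were lower and in the 6 with an unadjusted p under 0.05. Itgam, Ptprc, Fcgr1, Mrc1 and Cd163 were detected on no array, and C1qb on 2 control arrays. Of 6 osteoblast markers tested, all lay above 0 and 0 passed in limma (Col1a2 and Ibsp at an unadjusted p under 0.05). Their summed signals were 10041 to 12040 on the knockout-labelled arrays and 8933 to 10304 on the control arrays, mostly from Col1a1 and Col1a2. Ibsp was detected on 4 knockout-labelled and 1 control arrays, so it passed the filter through the group where it is higher. Of 9 osteoclast markers 2 were tested, Ctsk at 0.17 and Nfatc1 at -0.08, and the other 7 were detected on no array. The summed signals of the 2 were 3871 to 3960 on the knockout-labelled arrays and 3242 to 3787 on the control arrays, without overlap. That sum is nearly all Ctsk signal, so it repeats the values of that gene. Of 6 endothelial markers 1 was tested, Esam at 0.32, and none of these 3 genes passed (limma adjusted p = 0.114, 0.645 and 0.0748). The part of any of these marker lists in the values of Slc40a1 and the other iron genes was not tested.

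The difference in Slc40a1 kept its direction under all 20 alternatives, between 0.54 log2 in the authors' table and 0.78 without control array 3. It was 0.56 with no background correction, 0.62 with another correction (normexp with an offset of 50) and 0.72 with 75th percentile scaling. Slc40a1 was chosen from these same arrays, so a kept direction was close to fixed in advance and adds no support for the difference.

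**Figure D5:**
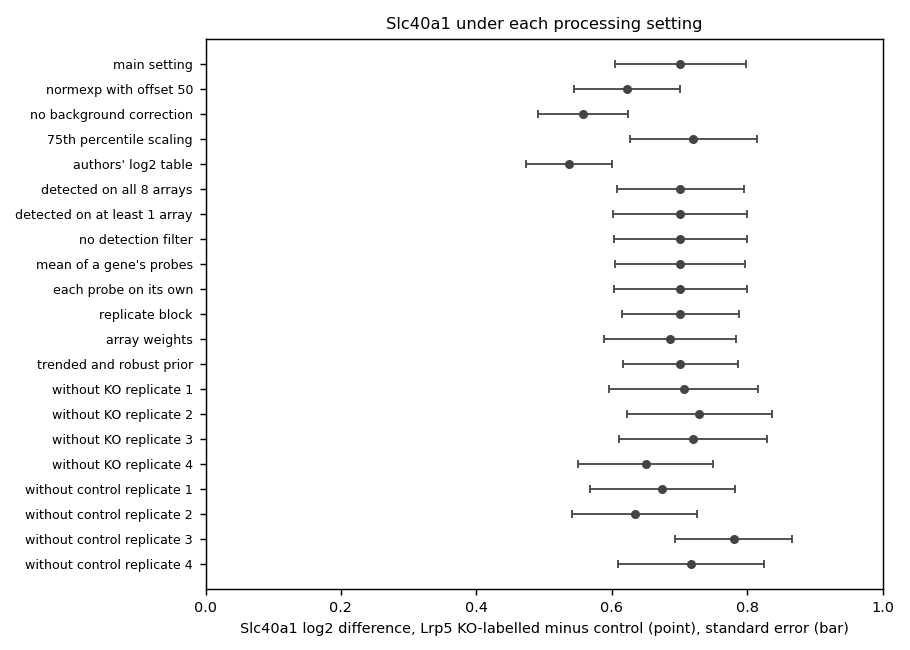
Log2 difference of Slc40a1 (x axis, knockout-labelled minus control, bars showing the standard error of each fit) under the main setting and the 20 alternatives. All values lie between 0.54 and 0.78. Slc40a1 was chosen from these same arrays, so the values describe the processing only.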

How the data were processed

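RNA was read on 8 Illumina arrays of 25697 probes, and whether each stems from a separate culture is not in the labels. The authors deposited, per the file headers, linear signal intensities with a detection value beside each. The submitters' processing notes name GenomeStudio, without a version. Median intensities of 126 to 155 and lowest values of 91.6 or more show that the deposited intensities had not been scaled to one level or cleared of background. The deposited detection values carry a p-value heading yet increase with intensity (Spearman's rho of 0.979 or higher), so 1 minus the value was taken. A log2 table that the authors also deposited has a median of 6.89 on every array and served as an alternative, and its scaling is not stated in the labels.

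Intensities were corrected and quantile-normalized with neqc of limma 3.58.1 in R 4.3.3 (offset 16). Of the 10004 probes kept, those with a gene symbol gave 7041 genes, each read from its brightest probe. Symbols came from the platform annotation (23978 probes with 1 symbol, 0 with several, 1719 with none), and 23962 matched the GRCm38.p6 gene table. The groups were compared with lmFit and eBayes, with Benjamini-Hochberg adjustment over all genes and a threshold of 0.05. The members and lists were chosen with earlier results of these data known. Genes named are the members, up to 5 genes past the threshold of each iron list, a fixed list of iron genes and the 5 genes most like Slc40a1 by each measure. Exceptions are stated. The limma fit was tested on simulated normalized values with independent noise. Background correction, normalization and the detection filter were not tested that way. Alternatives were other background corrections, scalings, filters, probe summaries, array weights, priors, the replicate block and leaving out each array. Protein sequences were not used here.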

Additional observations from a re-analysis of the deposited data

Results flagged for a closer look

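In 56 groups of 4 arrays, from 28 probes of the members and named genes, 3 held an array that stood apart from the others by Dixon's criterion, which chance meets in about 1 of 20 groups. The knockout-labelled array 1 was low for the other Fth1 probe, at 14.68 log2 against 14.78 for the nearest array of its group. The same array was low for Ireb2, at 7.25 against 7.55. Control array 4 was low for Scara5, at 6.76 against 7.57.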

How the results depend on the processing

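The difference in Slc40a1 moved by more than 1 SD between replicates (0.15) only in the authors' table (0.54), and with 1 array left out it lay between 0.63 and 0.78. The number of all genes called was 979 with no background correction, 971 in the authors' table, 965 with a trended and robust prior and 376 with no detection filter, and 323 to 718 with 1 array left out. Against 607 it was lower by more than 1.5 times without knockout-labelled array 1 (395), 2 (327) or 3 (392), or without control array 1 (368), 2 (323) or 3 (332). Of the members, 2 were called with no background correction, in the authors' table and with the trended and robust prior, the second being Hmox1, and 1 in each fit that left out 1 array. That 1 was Slc40a1, chosen from these same arrays, so nothing is read from it. Of the other iron genes called higher, there were 4 with normexp, no background correction or the trended and robust prior, 5 in the authors' table, 1 with detection on at least 1 array or the mean of a gene's probes and 0 with no detection filter, and 0 to 2 with 1 array left out. Of those called lower, there were 5 with normexp, no background correction, the authors' table, the mean of a gene's probes or the trended and robust prior, 6 with detection on all 8 arrays or array weights, and 1 to 5 with 1 array left out. The 8 uncalled members tested changed sign in 7 of 159 values under the alternatives, none of them called. The same replicate numbers occur in both groups, but same-numbered arrays deviated together only weakly (correlations of -0.03 to 0.09 over all genes), so the numbers were not taken as pairs. With the replicate block the difference in Slc40a1 was 0.70 and 408 genes were called. Dim probes such as those of Aco1, Hfe (the other probe) and Mtf1 limit what can be measured, and 4 arrays per group limit the precision.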
